A study of Mus musculus with 12 samples.

Results

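A set of 10 genes that bind, carry or sense zinc were followed from duodenum to liver in mice given corticosterone (CORT). They are the 2 metallothioneins Mt1 (ENSMUSG00000031765) and Mt2 (ENSMUSG00000031762), the importers Slc39a14 (ENSMUSG00000022094), Slc39a8 (ENSMUSG00000053897), Slc39a4 (ENSMUSG00000063354) and Slc39a5 (ENSMUSG00000039878), the exporters Slc30a1 (ENSMUSG00000037434), Slc30a2 (ENSMUSG00000028836) and Slc30a10 (ENSMUSG00000026614), and the transcription factor Mtf1 (ENSMUSG00000028890). The members were chosen by gene name with earlier results of these data known, and all 10 were found among the 55416 genes listed for each tissue. Male C57BL6/J mice aged 8 weeks were injected under the skin daily over 8 weeks with CORT, the chief rodent glucocorticoid, at 40 mg/kg, or with its vehicle of water, DMSO and Tween-80 (Veh). RNA of the duodenum, labelled intestine, and of the liver was sequenced in 3 CORT and 3 Veh libraries per tissue, 12 libraries in all. The labels call the libraries of a group biological replicates without naming the animals, so p-values measure the spread between these libraries.

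Metallothioneins are small cysteine-rich proteins that bind zinc and copper and buffer the free metal in the cell. Slc39 (ZIP) carriers bring zinc and some other metals into the cytosol, and Slc30 (ZnT) carriers move them out of the cell or into vesicles. MTF1 is activated when free zinc rises and binds metal response elements (MREs) in the promoters of the metallothionein genes and of Slc30a1, and glucocorticoids are known inducers of metallothioneins in liver.

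The promoters of the metallothionein genes and of Slc30a1 are shown because the first are the members with the largest differences below and the other shares MTF1 as a regulator but passed no test of CORT against Veh. The windows are RefSeq's, in build GRCm38.p6, and run from 250 bases before to 50 after the start of the gene, on the strand of the gene and from 5′ to 3′. Capitals mark every match to the MRE core, TGCACNC or TGCGCNC, on either strand.
Mt1, chr8:94178839-94179138, plus strand: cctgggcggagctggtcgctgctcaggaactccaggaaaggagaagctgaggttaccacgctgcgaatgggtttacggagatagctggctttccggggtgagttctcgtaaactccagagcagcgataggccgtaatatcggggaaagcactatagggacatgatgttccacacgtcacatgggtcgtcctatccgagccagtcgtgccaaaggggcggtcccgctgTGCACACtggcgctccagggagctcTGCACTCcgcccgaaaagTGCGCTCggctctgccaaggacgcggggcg
Mt2, chr8:94172368-94172667, plus strand: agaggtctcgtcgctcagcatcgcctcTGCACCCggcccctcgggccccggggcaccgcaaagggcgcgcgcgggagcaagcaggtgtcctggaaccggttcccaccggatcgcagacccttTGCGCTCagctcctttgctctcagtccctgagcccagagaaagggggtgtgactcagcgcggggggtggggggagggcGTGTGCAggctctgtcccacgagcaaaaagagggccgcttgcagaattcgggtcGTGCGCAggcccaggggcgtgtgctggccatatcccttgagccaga
Slc30a1, chr1:191906531-191906830, plus strand: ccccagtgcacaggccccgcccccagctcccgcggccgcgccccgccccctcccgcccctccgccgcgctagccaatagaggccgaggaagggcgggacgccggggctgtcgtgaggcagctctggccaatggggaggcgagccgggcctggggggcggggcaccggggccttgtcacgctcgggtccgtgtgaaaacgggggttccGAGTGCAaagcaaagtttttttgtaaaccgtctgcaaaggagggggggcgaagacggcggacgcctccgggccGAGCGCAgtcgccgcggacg

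The Mt1 window held 3 MRE cores, all on the strand of the gene, the first at -23 to -17 and the others at 3 to 9 and 21 to 27, with the first base of the gene as 1 and the base before it as -1. The Mt2 window held 4, of which 2 lay on the other strand, and the Slc30a1 window held 2, both on the other strand. Of the 32851 RefSeq windows of this length, 25.7% held at least 1 MRE core, 7.11% at least 2, 1.97% at least 3 and 0.517% at least 4. A palindromic glucocorticoid response element (GRE), written GNACA, then 3 bases of any kind, then TGTNC, was found in the Mt1 window at -94 to -82 and in 0.475% of all windows. The starts of Mt2 and Mt1 lie 6471 bases apart on the same strand. Windows were found for 8 of the 10 members. Slc30a10 had 3 MRE cores, 2 of them overlapping on opposite strands, Slc30a2 had 2, Slc39a5 and Slc39a8 had 1 in 1 of their 2 windows each, and the Mtf1 window had none. A match is a description of these letters, not of bound factor, and sequence outside the windows was not searched. Positions count from RefSeq's start, and where transcription started in these libraries was not examined. A core at a positive position is thus not shown to be transcribed, and a promoter may hold cores outside its window. None of the 10 windows, that of Mt1 included, held TATAAA on the strand of the gene.

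**Figure D1:**
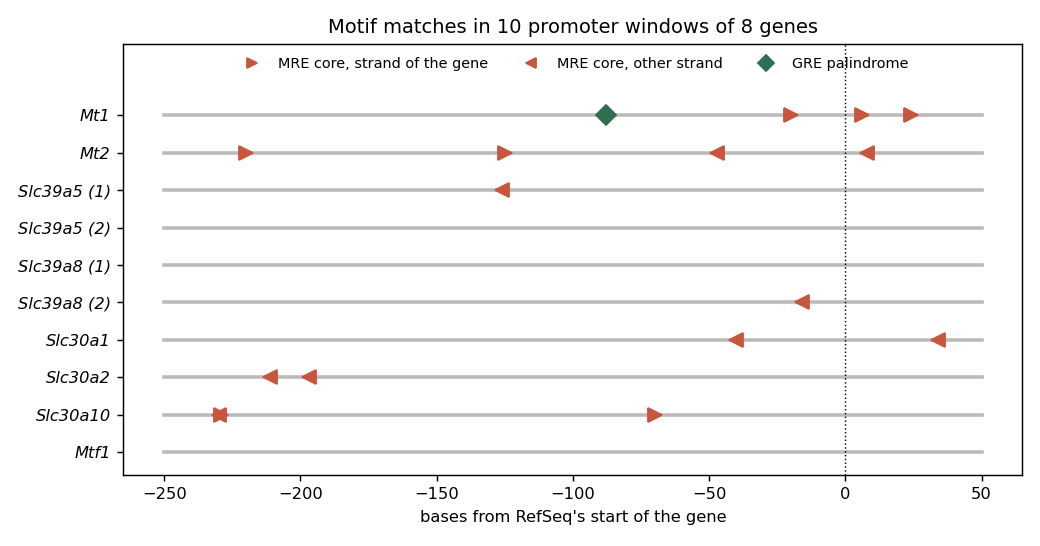
Positions of the MRE cores (triangles pointing along their strand) and of the GRE palindrome (diamond) in the 10 promoter windows of 8 members, in bases from RefSeq's start of the gene, with a second window numbered in parentheses. The Mt1 and Mt2 windows hold 3 and 4 cores, and the palindrome lies in the Mt1 window.

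The values are TPM, a relative abundance corrected for transcript length, so levels can be compared between genes, but the number of reads behind them is unknown. Fkbp5, a glucocorticoid-induced chaperone and a check of the treatment, had between 8.68 and 23.33 TPM in Veh and between 251.83 and 379.08 TPM in CORT duodenum, and between 7.14 and 19.51 against 220.88 to 273.03 TPM in liver. Tsc22d3, another glucocorticoid-induced gene, rose by 2.01 on the log2 scale in duodenum (limma adjusted p = 0.0185), and its difference of 1.92 in liver did not pass (limma adjusted p = 0.0623). Of the other controls, Sgk1 passed in liver (1.18, limma adjusted p = 0.0388) but not in duodenum (2.55, limma adjusted p = 0.0596), and Per1 passed in neither (limma adjusted p = 0.365 in duodenum and 0.131 in liver). Hepatocyte markers summed to between 106897 and 133607 TPM in liver and at most 237 TPM in duodenum. Most of the duodenum sum was Hnf4a, at 164.19 to 220.33 TPM, while Alb was at most 0.39 TPM there. Hnf4a rose in CORT liver (0.86, limma adjusted p = 0.0211). The 10 enterocyte markers summed to between 187 and 297 TPM in Veh and between 646 and 3985 TPM in CORT liver. Most of this was Apoa4, an apolipoprotein that liver also makes and that rose there (3.94, limma adjusted p = 0.0239), with Fabp2 and Anpep, while Vil1, Alpi, Sis, Lct, Cdx1 and Cdx2 were at most 0.34 TPM in every liver library. Duodenum libraries Veh2 and Veh3 stand apart: 31 pancreatic acinar genes summed to 41457 and 32948 TPM there, and to between 211 and 443 TPM in Veh1 and the CORT libraries, where 11 of the acinar genes were at 0 in all 3 CORT libraries. Differences of the members between CORT and Veh in the duodenum are therefore given with these libraries and, where it changes them, without. The comparisons between tissues were not fitted without Veh2 and Veh3 together. Differences of other genes in the duodenum are given with all libraries only, and how they depend on Veh2 and Veh3 is not shown. In RNA of whole tissue, fewer cells of a type and less RNA per cell cannot be told apart.

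The metallothioneins were the most abundant members in liver and rose there under CORT. Liver Mt1 had 290.18, 659.54 and 869.50 TPM in the Veh libraries and 4382.40, 5065.59 and 6244.95 TPM in the CORT libraries. Liver Mt2 had 147.41, 389.98 and 914.27 TPM in Veh and 4174.69, 2083.72 and 5626.19 TPM in CORT. Every CORT library lay above every Veh library for both genes, and the Veh libraries were themselves wide apart, with a highest value 3.00 times the lowest for Mt1 and 6.20 times for Mt2. On the log2(TPM + 1) scale the difference, CORT minus Veh, was 3.23 for Mt1 (SE 0.39, a 9.39-fold change, limma adjusted p = 0.00702) and 3.28 for Mt2 (SE 0.66, 9.73-fold, limma adjusted p = 0.0342). Together the pair made up 0.0439% to 0.179% of all listed TPM in Veh liver and 0.724% to 1.21% in CORT liver, and their sum rose from 1090 ± 674 to 9193 ± 2424 TPM (SD, n = 3 each). Leaving out any library kept the Mt1 call. The Mt2 call was lost without the filter on low values (limma adjusted p = 0.103) and without Veh1 (limma adjusted p = 0.0620), Veh2 (0.0739), CORT1 (0.105), CORT2 (0.0517) or CORT3 (0.0837), with differences between 2.61 and 3.69, and it held without Veh3 at 3.93.

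In the duodenum the metallothioneins differed in the same direction but did not pass the test. Mt1 had 181.94, 384.41 and 468.58 TPM in Veh and 1058.16, 688.98 and 819.93 TPM in CORT. Mt2 had 26.52, 112.91 and 173.30 TPM in Veh and 544.23, 327.17 and 307.72 TPM in CORT. Groups did not overlap for either gene. The differences were 1.39 for Mt1 (SE 0.36, 95% interval 0.55 to 2.24, limma adjusted p = 0.102) and 2.22 for Mt2 (SE 0.65, 95% interval 0.69 to 3.75, limma adjusted p = 0.139). The sum of both genes was 449 ± 221 TPM in Veh and 1249 ± 311 TPM in CORT (SD, n = 3 each), and the lowest CORT library had 1.58 times the sum of the highest Veh library, against 4.01 times in liver. The 10 enterocyte markers summed to between 19096 and 26805 TPM in Veh and between 29427 and 34906 TPM in CORT duodenum. Of the 10, 2 had all CORT libraries above all Veh libraries and 0 had them below. Over all genes tested in duodenum, 26.4% had groups apart in either direction, so this count is no result about the markers. The part of enterocytes in the results in duodenum was not tested. Veh1, the Veh library with little acinar RNA, had the lowest metallothionein values. Over all 32 acinar genes listed, the sum was 6053 TPM in Veh1 and between 5852 and 6710 TPM in CORT. In Veh2 and Veh3 it was 45770 and 39209 TPM. A fit with the log2 of the summed acinar TPM as a covariate thus compared CORT mainly with Veh1. In that fit the differences were 2.17 for Mt1 and 3.71 for Mt2, past the threshold with limma adjusted p = 0.0472 and 0.0347. With Zg16, which the duodenum itself expresses, left out of that sum, a setting chosen after seeing the data, they were 2.08 and 3.54 and missed it at 0.0661 and 0.0538. Without Veh2 and Veh3 together, a comparison with a single Veh library whose spread was taken from the CORT libraries, they were 2.20 and 3.79 (limma adjusted p = 0.161 and 0.120). Leaving out Veh1 instead brought the difference of Mt2 down to 1.43.

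The response of the metallothioneins was not shown to differ between the tissues. The difference of differences, liver minus duodenum, was 1.84 for Mt1 (SE 0.58, limma adjusted p = 0.118) and 1.06 for Mt2 (SE 1.04, limma adjusted p = 0.635). Without duodenum Veh1 it was 2.24 for Mt1 and passed (limma adjusted p = 0.0468). The ratio of Mt1 to Mt2 ranged from 1.94 to 6.86 over the duodenum libraries, highest in Veh1, and from 0.951 to 2.43 over the liver libraries. The genes are close paralogs, between which the quantification can split reads, so their sum is firmer than their ratio.

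**Figure D2:**
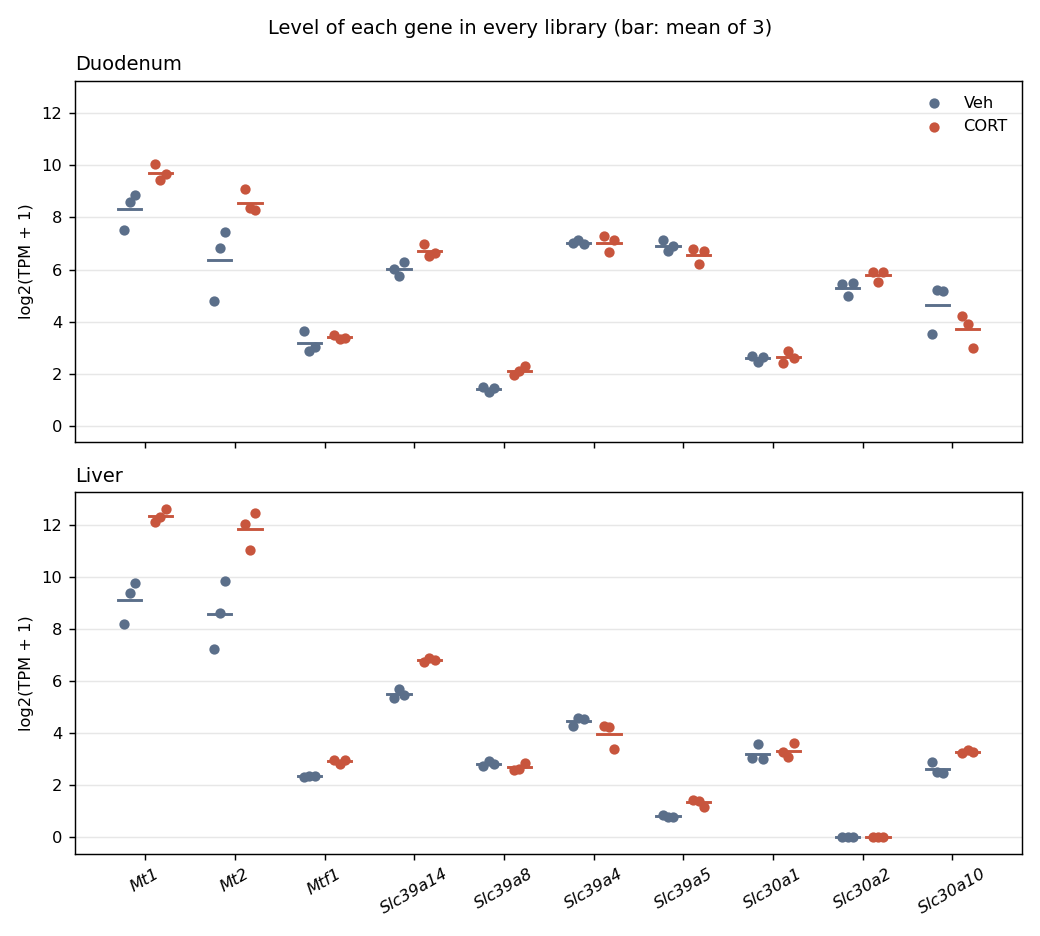
Level of the 10 members, as log2(TPM + 1), in every duodenum (upper) and liver (lower) library, with Veh in blue, CORT in red and a bar at the mean of 3 libraries. Liver Mt1 and Mt2 show the widest gaps between groups, and Slc30a2 is at 0 in all liver libraries.

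Mtf1 moved less than the metallothioneins. In liver it had 3.94, 4.13 and 4.09 TPM in Veh and 6.79, 6.06 and 6.89 TPM in CORT. The groups did not overlap and the Veh libraries were within 1.05 times of each other. The difference of 0.58 (SE 0.12) had a limma adjusted p of 0.0370, but its fold change of 1.498 was just under the limit of 1.5, so Mtf1 was not called. It was called with a pseudocount of 0.1 (0.68, limma adjusted p = 0.0366) and without Veh2 (0.59, limma adjusted p = 0.0449). The limma adjusted p was above 0.05 without Veh1 (0.109), Veh3 (0.119), CORT1 (0.151), CORT2 (0.0718) or CORT3 (0.103). It was also above 0.05 without the filter on low values (0.0873). In duodenum Mtf1 had 11.38, 6.34 and 7.18 TPM in Veh and 10.20, 9.07 and 9.28 TPM in CORT, and Veh1 lay above all CORT libraries. The difference there was 0.21 (95% interval -0.28 to 0.70, limma adjusted p = 0.601), and it turned to -0.24 without Veh2 and Veh3.

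Slc39a14 (ZIP14), a carrier of zinc, iron and manganese that takes zinc into hepatocytes in the acute phase response, rose in liver. It had 39.91, 51.07 and 43.55 TPM in Veh and 104.39, 116.25 and 111.04 TPM in CORT liver, with tight groups far apart. The difference was 1.29 (SE 0.13, 2.44-fold, limma adjusted p = 0.00492), and the call held when any library was left out. In duodenum it had 64.73, 52.64 and 76.87 TPM in Veh and 125.17, 89.79 and 98.28 TPM in CORT. These groups did not overlap either, and the difference of 0.68 (SE 0.19) did not pass the test (limma adjusted p = 0.124). The tissue difference of 0.61 (SE 0.23) did not pass (limma adjusted p = 0.196).

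Slc39a8 (ZIP8), a carrier of zinc and manganese, was the only member whose response differed between the tissues by the test. Duodenum had 1.80, 1.45 and 1.70 TPM in Veh and 2.82, 3.28 and 3.92 TPM in CORT, and the groups did not overlap. Liver had 5.64, 6.52 and 6.02 TPM in Veh and 5.05, 5.19 and 6.22 TPM in CORT, and the groups overlapped. The difference was 0.71 (SE 0.17, limma adjusted p = 0.0862) in duodenum and -0.12 (SE 0.13, limma adjusted p = 0.592) in liver, so neither passed alone. The difference of differences was -0.83 (SE 0.19, limma adjusted p = 0.0386). It passed in 3 of the 12 fits without a library, those without duodenum Veh1 (0.0481), duodenum CORT1 (0.0345) or liver CORT3 (0.0384). Without duodenum Veh2 (0.0850), Veh3 (0.0793), CORT2 (0.0622) or CORT3 (0.0797), or liver Veh1 (0.0615), Veh2 (0.0569), Veh3 (0.0808), CORT1 (0.0971) or CORT2 (0.0826) the limma adjusted p was above 0.05, with differences between -0.92 and -0.74 over the 12 fits. Without the filter on low values the limma adjusted p was 0.0689. In all, 3.6% of the 14806 genes tested were called for a tissue difference. At levels this low the log2(TPM + 1) scale understates a change, and the ratio of the group means was 2.02 in duodenum.

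Slc39a4 (ZIP4), which takes up dietary zinc at the apical face of enterocytes, had no detectable difference in duodenum. It had 128.51, 138.36 and 123.96 TPM in Veh and 155.64, 99.82 and 139.21 TPM in CORT. The difference was -0.0088 (95% interval -0.44 to 0.42, limma adjusted p = 0.984). In liver it had 18.41, 22.64 and 22.06 TPM in Veh and 18.06, 17.55 and 9.43 TPM in CORT. Every CORT liver library lay below every Veh library, by little for CORT1 and CORT2, and the difference of -0.51 (SE 0.25) did not pass (limma adjusted p = 0.248). Slc39a5 (ZIP5), an importer on the basolateral face of enterocytes that is also made in pancreas, had 140.34, 103.99 and 117.52 TPM in Veh and 109.23, 72.31 and 105.12 TPM in CORT duodenum. The difference was -0.35 (95% interval -0.82 to 0.13, limma adjusted p = 0.394), and the acinar-rich Veh2 and Veh3 libraries were below Veh1. In liver Slc39a5 had 0.79, 0.69 and 0.72 TPM in Veh and 1.70, 1.63 and 1.25 TPM in CORT, and it was tested only because its CORT mean passed the minimum of 1 TPM. The difference of 0.54 (SE 0.18) did not pass (limma adjusted p = 0.125).

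Among the exporters, Slc30a10 was called in liver. Slc30a10 (ZnT10) is known mainly as a manganese exporter of hepatocytes and enterocytes. It had 6.34, 4.59 and 4.50 TPM in Veh and 8.27, 9.23 and 8.70 TPM in CORT liver, without overlap. The difference was 0.68 (SE 0.15, 1.6-fold, limma adjusted p = 0.0468). This call was close to the threshold: it was lost without Veh2 (limma adjusted p = 0.0779), Veh3 (0.152), CORT1 (0.133), CORT2 (0.121) or CORT3 (0.107), without the filter on low values (0.108), and when libraries were scaled by the median of their ratios to the geometric mean (0.59, limma adjusted p = 0.0926). Without Veh1 it held at 0.81.

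In duodenum Slc30a10 had 10.53, 35.61 and 35.47 TPM in Veh and 17.45, 13.92 and 6.95 TPM in CORT. Veh2 and Veh3 were high, and Veh1 lay among the CORT libraries. The difference of -0.94 (SE 0.51, 95% interval -2.15 to 0.27, limma adjusted p = 0.370) turned to 0.17 without Veh2 and Veh3, the libraries with acinar RNA. Pdx1, a transcription factor of pancreas and proximal duodenum that was chosen for this comparison after its values were seen, had 13.41, 41.87 and 40.57 TPM in Veh and 32.38, 23.93 and 8.13 TPM in CORT duodenum. Slc30a10 and Pdx1 had the same rank in all 6 libraries, which share the treatment and the acinar RNA. Other genes of the proximal duodenum were looked at in the same way. Slc40a1, an iron exporter, had 11.84, 263.04 and 302.03 TPM in Veh and 56.03, 23.6 and 3.22 TPM in CORT. It had the rank of Slc30a10 in 4 of the 6 libraries, and its order differed only between Veh2 and Veh3, where Slc30a10 was nearly equal. Ada, an adenosine deaminase, had the rank of Slc30a10 in 1 of the 6. Its values were 1124.17, 1903.23 and 2040.61 TPM in Veh and 1934.67, 873.65 and 647.24 TPM in CORT. Where along the duodenum each sample was taken is not given in the sources used here, and its part in these values was not tested. Without duodenum Veh1 the tissue difference of Slc30a10, 1.61 with all libraries (SE 0.59, limma adjusted p = 0.176), was 2.17 and passed (limma adjusted p = 0.0164).

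**Figure D3:**
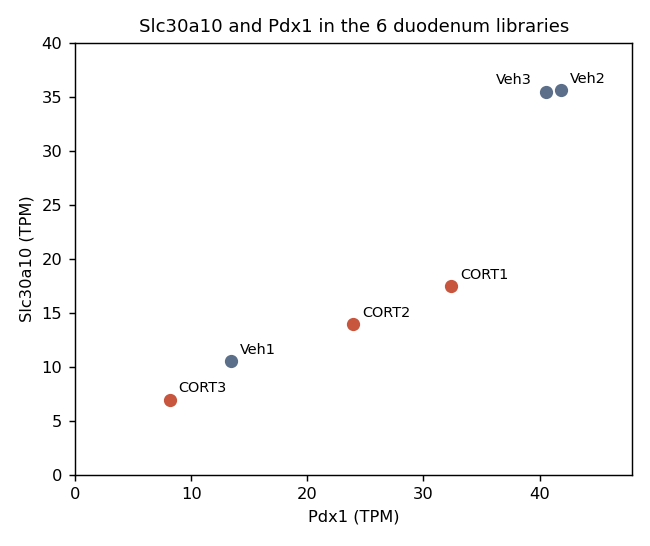
TPM of Slc30a10 against TPM of Pdx1 in the 6 duodenum libraries, 1 point per library, Veh in blue and CORT in red. Veh2 and Veh3 lie together at the upper right, and Veh1 lies between CORT3 and CORT2.

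Slc30a1 (ZnT1), which exports zinc across the plasma membrane, had 5.44, 4.41 and 5.23 TPM in Veh and 4.38, 6.38 and 5.11 TPM in CORT duodenum. In liver it had 7.14, 11 and 6.95 TPM in Veh and 8.62, 7.45 and 11.10 TPM in CORT. Groups overlapped in both tissues. The differences were 0.053 (95% interval -0.33 to 0.44, limma adjusted p = 0.886) in duodenum and 0.11 (95% interval -0.39 to 0.62, limma adjusted p = 0.771) in liver, and the sign of each turned in some of the fits without a library. Slc30a2 (ZnT2), which loads zinc into secretory vesicles and is also made by pancreatic acinar cells, had 42.22, 31.01 and 43.41 TPM in Veh and 59.59, 45.09 and 58.65 TPM in CORT duodenum. The groups did not overlap, although CORT2 exceeded Veh3 by little, and the difference of 0.48 (SE 0.18) did not pass (limma adjusted p = 0.216). Of the acinar-rich libraries, Veh2 had the lowest Slc30a2 and Veh3 the highest among the Veh libraries, with Veh1 close to Veh3. Paneth cells also express Slc30a2, and 11 Paneth markers summed to between 9957 and 26413 TPM in Veh and 11248 and 31254 TPM in CORT duodenum. No Paneth marker had groups that stood apart, where 26.4% of all genes tested did. The part of Paneth cells in the Slc30a2 values was not tested. Slc30a2 was listed at 0 in all 6 liver libraries and was not tested there.

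Counted over the members, 4 of the 9 tested in liver were called, all higher in CORT, where 4.91% of the 11699 genes tested were called higher and 2.01% lower. Because the members were chosen with earlier results of these data known, the counts beside these shares describe the set and test nothing. Slc39a5 entered the liver test only through its CORT group. Of the 8 members whose means reached 1 TPM in both liver groups, 6 had groups that did not overlap, 5 above and 1 below, against 32.2% of all genes tested in liver. In duodenum 0 of the 10 were called, where 1.23% of the 13607 genes tested were called higher and 0.919% lower with limma. At an unadjusted p under 0.05, 5 of the 10 members differed in duodenum, where 19.2% of all genes tested did, and these 5 (Mt1, Mt2, Slc39a14, Slc39a8 and Slc30a2) were those whose groups did not overlap, a state that 26.4% of all genes tested were in. The median difference was 0.35 over the 10 members in duodenum and 0.63 over those 8 in liver, beside -0.012 and 0.078 over all genes tested. For a single gene, the smallest two-sided p that an exact permutation test reaches with groups of 3 libraries is 0.1.

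**Figure D4:**
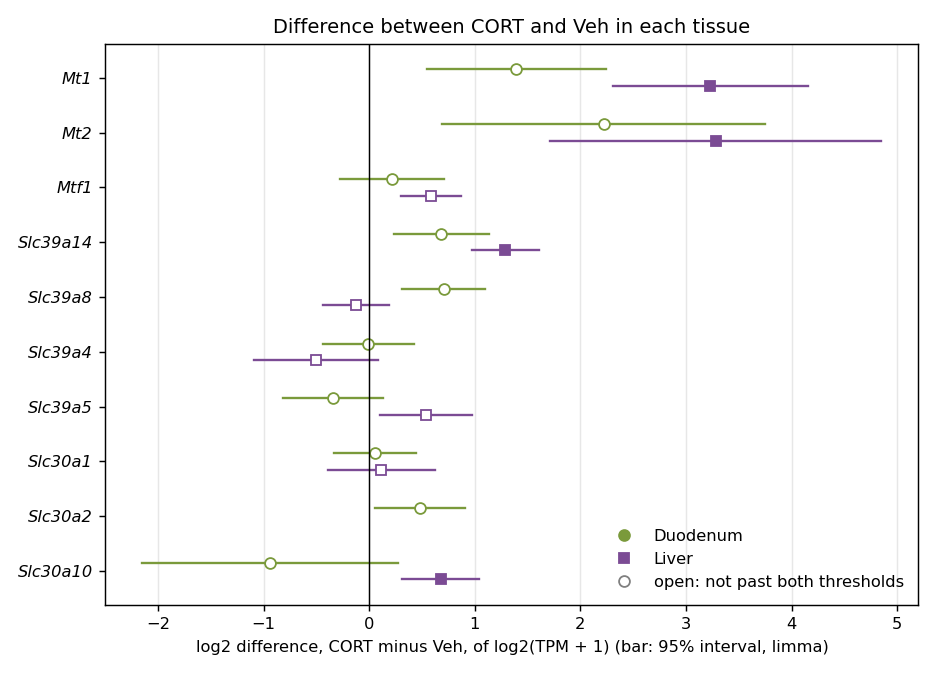
Difference between CORT and Veh on the log2(TPM + 1) scale for each member, in duodenum (circles) and liver (squares), with the 95% interval from limma. Filled symbols (Mt1, Mt2, Slc39a14 and Slc30a10 in liver) passed both the adjusted p of 0.05 and the fold of 1.5.

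**Figure D5:**
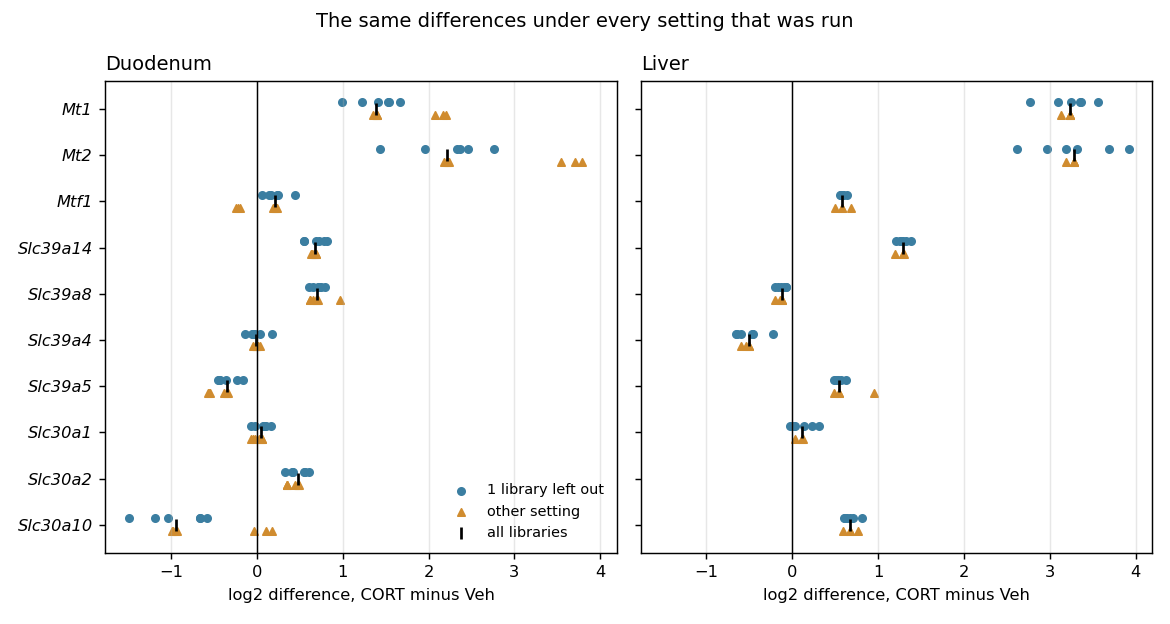
The same difference for each member with all libraries (black bar), with 1 library left out (blue circles) and under the other settings (orange triangles). In duodenum Mtf1, Slc39a4, Slc30a1 and Slc30a10 fall on both sides of 0, and in liver Slc30a1 does, while liver Mt1 stays between 2.77 and 3.56 and liver Slc39a14 between 1.19 and 1.38.

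Of 19 further metallothionein, Slc39 and Slc30 genes, 14 were tested in duodenum and 13 in liver. With limma, 0 were called in either tissue, and 1 in duodenum and 2 in liver had an unadjusted p under 0.05, where 19.2% of all genes tested did in duodenum and 25.9% in liver. With so few genes called over all, a count of 0 in lists of this size is no result about them. The median difference was 0.024 in duodenum and 0.20 in liver. Slc30a4, a vesicular zinc exporter that was singled out after its values were seen, had 10.83, 6.96 and 10.12 TPM in Veh and 14.04, 22.44 and 15.64 TPM in CORT duodenum (0.83, SE 0.22, limma adjusted p = 0.117). Of 12 copper handling genes, 0 were called in either tissue by limma, with 2 at an unadjusted p under 0.05 in each, a share near that of all genes. Of the manganese handling genes, 0 of 4 in duodenum and 0 of 5 in liver were called, with 1 at an unadjusted p under 0.05 in each, again near that of all genes.

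Of 6 further genes named as MTF1 targets, 1 was called in duodenum, where 1.23% of all genes tested were called higher and 0.919% lower. At an unadjusted p under 0.05, 2 of the 6 differed there, against 19.2% of all genes tested. They were Gclc, which was higher, and Csrp1, which was lower (-0.68, SE 0.25, limma adjusted p = 0.205). Gclc, the catalytic subunit of the enzyme that starts glutathione synthesis, had 14.23, 32.85 and 20.53 TPM in Veh and 107.43, 92.83 and 66.3 TPM in CORT duodenum, and rose by 1.98 (SE 0.31, limma adjusted p = 0.0310). In liver Gclc had 47.65, 93.16 and 49.34 TPM in Veh and 56.27, 33.93 and 89.77 TPM in CORT, with a difference of -0.11 (limma adjusted p = 0.880). In liver, 0 of the 6 were called with limma, and 1 had an unadjusted p under 0.05, near the share of all genes. That gene was Slc40a1, which is also the 1 counted among the manganese handling genes in liver. The lists overlap, and an Slc39 gene of the 6 is also among the further zinc genes above.

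In the Veh groups the order of the members by level differed between the tissues. The order in Veh duodenum was led by Mt1 at 345 ± 147 TPM, followed by Slc39a4 at 130 ± 7.36, Slc39a5 at 121 ± 18.4, Mt2 at 104 ± 73.8, Slc39a14 at 64.7 ± 12.1, Slc30a2 at 38.9 ± 6.84, Slc30a10 at 27.2 ± 14.4, Mtf1 at 8.30 ± 2.70, Slc30a1 at 5.03 ± 0.544 and Slc39a8 at 1.65 ± 0.180 TPM (SD, n = 3 each). Neighbours overlapped from Slc39a4 to Slc39a14 and from Slc30a2 to Mtf1. The order in Veh liver was Mt1 at 606 ± 293 TPM, Mt2 at 484 ± 392, Slc39a14 at 44.8 ± 5.69, Slc39a4 at 21.0 ± 2.29, Slc30a1 at 8.36 ± 2.29, Slc39a8 at 6.06 ± 0.441, Slc30a10 at 5.14 ± 1.04, Mtf1 at 4.05 ± 0.10 and Slc39a5 at 0.733 ± 0.0513 TPM, with Slc30a2 listed at 0. The neighbours that overlapped were Mt1 with Mt2 and Slc39a8 with Slc30a10. Under CORT the metallothioneins led in both tissues, at 856 ± 187 and 393 ± 131 TPM in duodenum and 5231 ± 942 and 3962 ± 1781 TPM in liver.

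Between the Veh groups, 65.6% of the 14806 genes tested were called. Slc30a2 and Slc39a5 entered this test only through the duodenum, and of the 8 other members 6 were called, a share near that of all genes. The median gene was 0.68 lower in liver on this scale, a shift that median-ratio scaling brought to -0.025. Relative to the duodenum, Veh liver was lower in Slc39a4 (log2 difference -2.58, limma adjusted p = 1.28e-06) and Slc30a10 (-2.03, limma adjusted p = 0.00101). These were -1.80 and -1.31 under median-ratio scaling. Slc30a10 had 10.53 TPM in duodenum Veh1, 35.61 and 35.47 TPM in the acinar-rich Veh2 and Veh3, and 4.50 to 6.34 TPM in Veh liver. Its difference thus rests largely on Veh2 and Veh3. Slc39a5 had a mean under 1 TPM in Veh liver, so its log2 difference, -6.12 as reported and -7.17 with a pseudocount of 0.1, depends on the scale. Veh liver was higher in Slc39a8 (1.41, limma adjusted p = 2.10e-06) and in Mt2 (2.20, limma adjusted p = 0.0182). The call of Mt2 was lost without duodenum Veh1 (1.42, limma adjusted p = 0.0793) or liver Veh3 (1.56, limma adjusted p = 0.0822). Median-ratio scaling took Mt2 to 2.99, brought Mt1 past the threshold (from 0.78 to 1.58, limma adjusted p = 0.00607) and ended the call of Mtf1 (from -0.84 to -0.16, limma adjusted p = 0.421). Slc39a14 was -0.51 as deposited and 0.28 under median-ratio scaling, so no direction is given for it.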

How the data were processed

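Per the labels and the study's methods, reads were trimmed with SeqPrep and Sickle, aligned with HISAT2, assembled with StringTie and quantified with RSEM, with GRCm39 named as the build. The authors deposited TPM per gene and library, not pooled. Versions are not given in the sources used here. The authors called differential genes with DESeq2; their lists were not used here. TPM keeps no depth, so no counting interval is given.

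Here, log2(TPM + 1) was computed, genes under a mean of 1 TPM in both groups were dropped, and the rest were fitted per tissue with limma 3.58.1 (R 4.3.3; eBayes with a trend), and all 12 libraries were fitted together for differences between tissues. Benjamini-Hochberg adjusted p ran over all genes tested. Called genes had a fold over 1.5 and an adjusted p not above 0.05. The fits were tested on simulated data. A count model had been foreseen for count tables and was not needed. Alternatives tried were no filter, a pseudocount of 0.1, median-ratio scaling, a replicate block, leaving out libraries, and removing or adjusting for acinar genes. Named genes were the members, genes of the further lists past the threshold, Fkbp5 and Tsc22d3 as controls, marker genes, and the 3 genes most correlated with each metallothionein. Slc30a4, Csrp1, Pdx1, Ada, Slc40a1, Sgk1 and Per1 were named after their values were seen. Members and lists were chosen with earlier results of these data known. Promoters are RefSeq's (GRCm38.p6); coordinates in GRCm39 were not used here.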

Additional observations from a re-analysis of the deposited data

Results flagged for a closer look

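The response of Slc39a8 to CORT differed between the tissues in the 12-library fit, with a liver minus duodenum difference of -0.83 on the log2 scale (limma adjusted p = 0.0386). All 3 CORT duodenum libraries (2.82 to 3.92 TPM) lay above the Veh libraries (1.45 to 1.80 TPM), while in liver the groups overlapped (5.05 to 6.22 and 5.64 to 6.52 TPM). The adjusted p ranged from 0.0183 to 0.118 over the 16 alternatives, 5 of which kept the call. Groups of 3 libraries are too small for a test of outlying samples.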

How the results depend on the processing

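TPM hides the depth, so low members such as Slc39a8 and liver Slc39a5 are limited by an unknown number of reads, and 3 libraries per group set the precision. The numbers of genes called in duodenum, 292 with all libraries, were 52 without the filter, 62 with the replicate block, 66 to 237 with 1 library left out, 10 without Veh2 and Veh3, and 55 with the acinar covariate, with or without Zg16 in it; with the covariate including Zg16, 2 members were called in place of 0. In liver the 810 genes became 283 without the filter, 307 with the replicate block and 247 to 831 with 1 library left out, and the 4 members called became 2 without the filter and 2 to 3 with 1 library left out. For the tissue difference the 533 genes became 336 without the filter, 211 with the replicate block and 289 to 626 with 1 library left out, and the 1 member called became 2 with a pseudocount of 0.1, 0 without the filter, 0 with the replicate block and 0 to 3 with 1 library left out. Beside the block, liver Mt1, Mt2 and Slc39a14 kept their calls and Slc30a10 (limma adjusted p = 0.114) and the tissue difference of Slc39a8 (0.118) lost theirs. Same-numbered libraries did not deviate together (correlations between -0.15 and 0.111), and the labels do not tie a number to an animal. Signs turned in duodenum for Slc39a4 (-0.14 to 0.18 with 1 library left out, 0.0092 without Veh2 and Veh3, 0.038 with the covariate), Slc30a1 (-0.068 to 0.16, then -0.046, and -0.065 and -0.025 with the covariate and with it lacking Zg16), Slc30a10 (0.17 without Veh2 and Veh3, 0.11 with the covariate) and Mtf1 (-0.24, -0.22 and -0.20). They turned in liver for Slc30a1 (-0.028 to 0.31), for its tissue difference (-0.081 to 0.25, and -0.022 with median-ratio scaling), and between Veh tissues for Slc39a14 (0.28 with median-ratio scaling). The cause was not tested. No other reported direction of a member turned in these settings.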

Other observations

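Veh3 had the highest value of the 3 Veh libraries in both tissues for Mt1, Mt2 and the glucocorticoid-induced genes Fkbp5, Tsc22d3, Per1 and Sgk1, that is in 12 of 12 pairs of gene and tissue. In duodenum Sgk1 had 61.04, 49.41 and 197.23 TPM in Veh1, Veh2 and Veh3, and in liver Tsc22d3 had 31.34, 18.36 and 68.02 TPM. These genes were put together after their values had been seen, and the labels do not say whether a number marks the same mouse in both tissues.

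Over the 6 duodenum libraries, the genes whose log2(TPM + 1) followed Mt1 most closely were Ppp1ccb (Pearson r = 0.995), Rftn2 (r = 0.994) and Mt2 (r = 0.990), and those closest to Mt2 were Rftn2 (r = 0.995), Mt1 (r = 0.990) and Ppp1ccb (r = 0.988). In liver, Zfp219 (r = 0.995), Msl3 (r = 0.994) and Fmo2 (r = 0.994) were closest to Mt1, and Proca1 (r = 0.998), Herpud1 (r = 0.993) and Pptc7 (r = 0.990) to Mt2. Mt1 and Mt2 had r = 0.964 with each other in liver. In all, 247 genes in liver and 28 in duodenum had r over 0.95 with Mt1. The libraries share the treatment, so these values describe a common split and carry no test.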
